A study of Mus musculus with 200 samples.

Results

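The potassium channel genes described here are the genes of the deposited count table whose symbol begins with Kcn and a lower-case letter, other than the antisense gene Kcnq1ot1, and that had at least 10 counts in at least 20 of the 200 mice. Of 98 such symbols, 83 passed the count limit. The rule used the symbol and the counts and no comparison, but it was set with earlier results of these data known. Just inside the limit were Kcnd3os, with 10 counts or more in 23 mice, and Kcnq1, in 45 mice, and just outside it were Kcnn4, in 10 mice, and Kcnmb4os1, in 9 mice. RNA came from 1 brain hemisphere of each mouse, taken after perfusion with PBS. Mice belonged to C57BL/6J or to a strain labelled IL-1R1 nRestore, IL-1R1 eRestore or IL-1R1 gKO, were 3.3 to 7.67 months old, and had received closed head injury (CHI), a midline impact on the intact skull under anaesthesia, or sham surgery with anaesthesia and incision only. No other allele or agent is given in the labels, and what the IL-1R1 strains carry is not described beyond these names, so they are used as labels only.

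At 9 h there were 15 CHI and 6 sham mice in C57BL/6J, 13 and 6 in IL-1R1 gKO, 12 and 6 in IL-1R1 eRestore and 6 and 4 in IL-1R1 nRestore. At 24 h the groups held 14 and 6, 12 and 6, 9 and 5, and 8 and 5 mice in the same order, and at 72 h they held 14 and 6, 12 and 6, 12 and 6, and 6 and 5. Both sexes were in every group except those of IL-1R1 nRestore at 72 h, where all mice were male. Total estimated counts were 14857985 to 57355676 per mouse (median 20258936). The neuronal markers were high throughout, with Snap25 at 2436 to 4668 TPM (transcripts scaled for length and depth) in the 200 mice.

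Potassium channels set the resting potential of a neuron, end the action potential and limit repetitive firing. Voltage-gated channels are built from 4 similar subunits of the Kcna, Kcnb, Kcnc and Kcnd families, joined by modifier subunits (Kcnf, Kcng, Kcns, Kcnv) that form no channel alone and by auxiliary subunits (Kcnab, Kcne, Kcnip) that alter gating and traffic. Kcnh and Kcnq genes encode further voltage-gated channels, Kcnm, Kcnn and Kcnt genes channels opened by calcium or sodium, Kcnj genes inward rectifiers, and Kcnk genes the leak channels with tandem pore domains. By these families the members were 15 Kcna to Kcnd genes, 9 modifier subunits, 8 Kcnh, 5 Kcnq, 10 Kcnm, Kcnn, Kcnt and Kcnu, 13 Kcnj, 10 Kcnk, 10 auxiliary subunits and 3 others, which are Kcnrg and the antisense genes Kcnd3os and Kcnmb4os2.

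Levels in the uninjured brain were compared per length, as TPM in the 18 C57BL/6J sham mice of all time points. The highest member was Kcnab2, a cytoplasmic beta subunit of Kcna channels, at 381.8 ± 55.5 TPM (SD, n = 18). The beta subunit Kcnab1 was at 96.6 ± 20.4 TPM and the astrocyte inward rectifier Kcnj10 at 95.5 ± 12.2 TPM, within 1 SD of each other. The highest members of other families included Kcnc1, the channel of fast-spiking neurons, at 72.7 ± 16.7 TPM, the modifier Kcnv1 at 59.8 ± 6.96 TPM, Kcnh3 at 58.2 ± 6.36 TPM, Kcnmb4, the neuronal beta subunit of the BK channel, at 62.8 ± 8.84 TPM, and the leak channel Kcnk1 at 84.5 ± 5.84 TPM. Of the 83 members, 74 averaged at least 1 TPM, 50 at least 10 TPM and 19 at least 50 TPM.

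**Figure D1:**
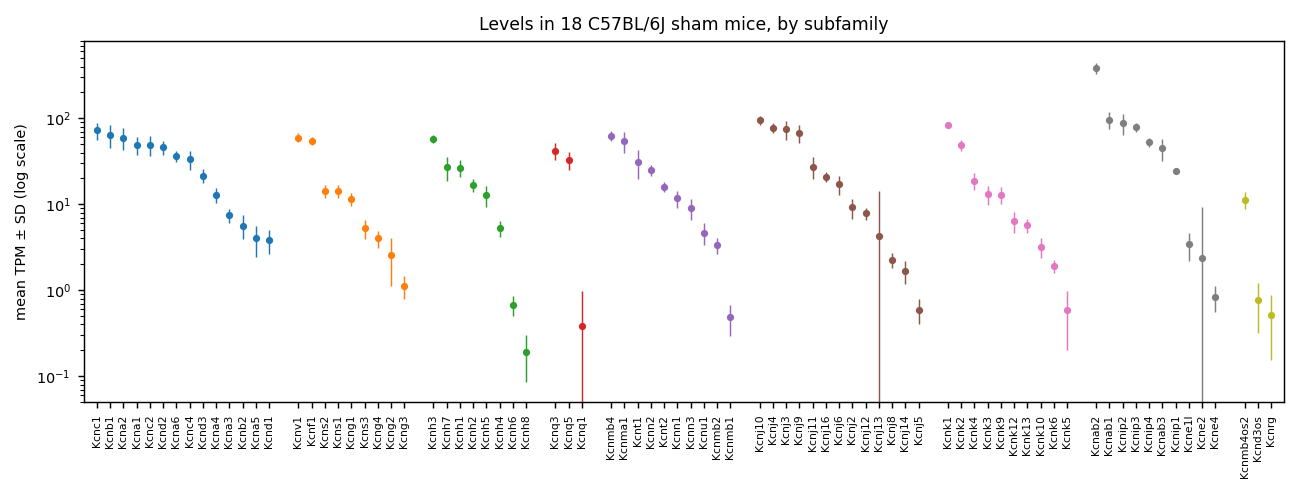
Mean TPM (log axis) of the potassium channel genes in 18 C57BL/6J sham mice, grouped by family and sorted within it. Points are means and bars are SD, and a bar that runs to the lower axis has an SD at or above its mean. Kcnab2 stands highest at 381.8 TPM, and Kcnj13 and Kcne2 have the widest bars for their level.

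To ask how CHI altered channel expression early after injury, CHI and sham mice were compared at 9 h in C57BL/6J. CHI shifted members of several families by modest amounts. Called members went both ways among the Kcna to Kcnd, modifier, Kcnj and Kcnk genes. The steepest falls were in the modifier subunits Kcng1 and Kcnv1, the sodium-activated channel Kcnt2, the calcium-activated channel Kcnn3, the leak channel Kcnk13 and the BK subunit Kcnmb1, and the rises included the modifiers Kcng2, Kcng4 and Kcns1, the inward rectifier Kcnj8, the beta subunit Kcnab2 and 3 Kcnip genes. In all, 24 of 82 members tested passed an adjusted p of 0.05 (edgeR quasi-likelihood test, Benjamini–Hochberg), 12 higher and 12 lower, or 29.3%. Over all genes 2385 of 16967 passed, or 14.1%, with 7.05% higher and 7% lower. The median log2 fold change was -0.02 over the members and -0.01 over all genes, and the median size of the change, whatever its sign, was 0.21 and 0.14. Since these are whole-hemisphere samples, fewer cells of a type and less RNA per cell cannot be told apart for any member.

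**Figure D2:**
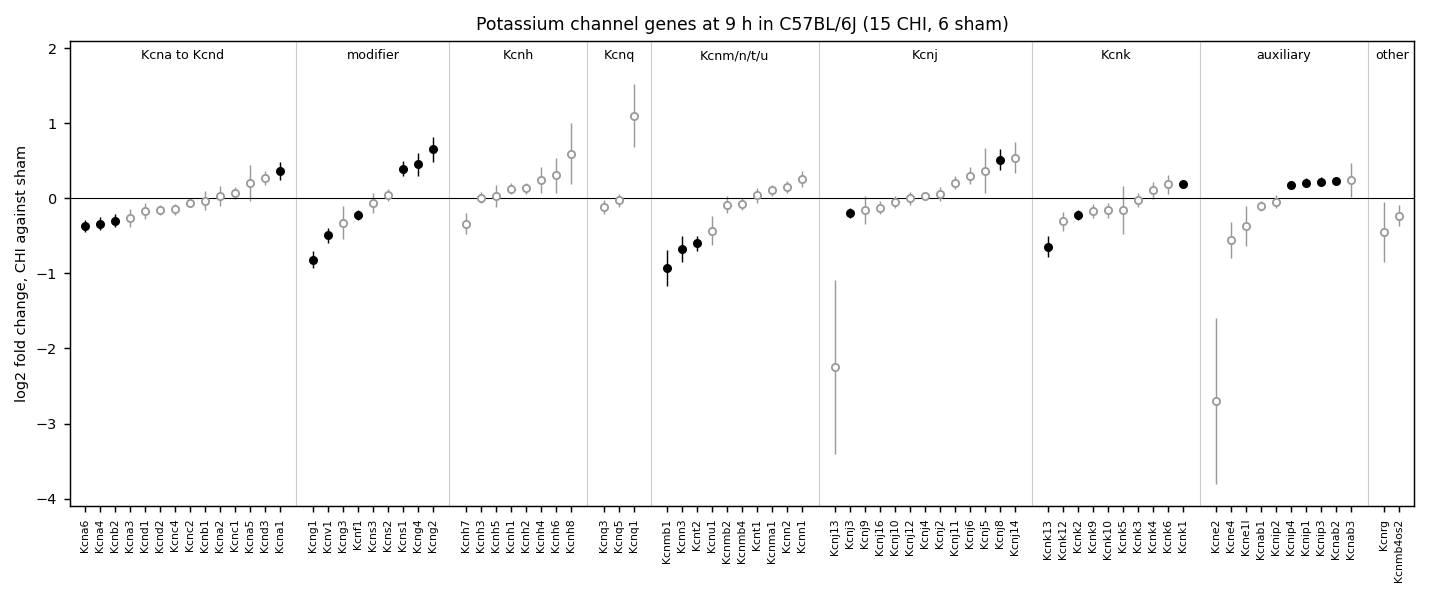
Log2 fold change of CHI against sham at 9 h in C57BL/6J for 79 members, by family. Bars are standard errors and filled points passed an adjusted p of 0.05. Filled points lie on both sides of 0 among the Kcna to Kcnd genes and the modifier subunits, below 0 among the Kcnm, Kcnn and Kcnt genes and above 0 among the auxiliary subunits, while no Kcnh gene is filled.

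The modifier subunits were the family with the most members called, 6 of 9, beside 14.1% of all genes. Kcng1, whose product joins Kcnb channels and shifts their gating, had the smallest p of all members. Its normalized count in CPM, counts scaled to library size, was 16.1 to 25.8 in the sham mice (median 20.1, n = 6) and 9.07 to 15.6 in the CHI mice (median 10.8, n = 15). All 15 CHI mice lay below the lowest sham mouse. The log2 fold change was -0.82 ± 0.12 (SE, adjusted p = 4.409e-05). Kcnv1, another silent partner of Kcnb channels, was 113.1 CPM in the lowest sham mouse (median 141.2) and 67.2 to 130.6 CPM in CHI mice (median 108.1). The 2 groups overlapped, and 10 of 15 CHI mice were below every sham mouse. Its log2 fold change was -0.49 ± 0.10 (adjusted p = 0.000917). Kcnf1 fell less (-0.22 ± 0.07 on the log2 scale, adjusted p = 0.03057), a call lost without sham replicate 2, 3 or 6.

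Other modifiers rose. Kcng2 was 2.63 to 3.94 CPM in sham mice (median 3.25) and 2.85 to 8.48 CPM in CHI mice (median 5.02). The values overlapped at the low end, and 13 of 15 CHI mice exceeded every sham mouse. The log2 fold change was 0.65 ± 0.16 (adjusted p = 0.007939). This call was lost in a DESeq2 fit with gene-length offsets. Kcns1 was 16.7 to 25.0 CPM in sham mice (median 21.7) and 22 to 35.7 CPM in CHI mice (median 27.7). For this gene 11 of 15 CHI mice were above all sham mice. It rose by 0.40 ± 0.10 on the log2 scale (adjusted p = 0.008621). Kcng4 rose by 0.45 ± 0.15 (adjusted p = 0.04166), so that members of the same Kcng family moved in opposite directions. Of the channels that these subunits join, Kcnb2 fell (log2 fold change -0.30 ± 0.09, adjusted p = 0.02636).

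Among the Kcna to Kcnd channel subunits 5 of 15 were called, 2 higher and 3 lower, beside 14.1% of all genes. Kcna6 and Kcna4, both subunits of delayed or transient currents in axons and terminals, fell by 0.37 ± 0.08 (adjusted p = 0.002126) and by 0.34 ± 0.09 (adjusted p = 0.009604) on the log2 scale. Kcna6 was 107.3 to 134.7 CPM in sham mice (median 118.3) and 63.4 to 124.9 CPM in CHI mice (median 92.7), with 12 of 15 CHI mice under every sham mouse. Kcna1, a low-threshold axonal channel, rose by 0.36 ± 0.12 (adjusted p = 0.04132). Kcna genes were therefore called both ways, with the rise resting on Kcna1 alone. Kcna1 passed in 8 of 16 other settings of the analysis.

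Most of the Kcnm, Kcnn, Kcnt and Kcnu genes are for channels that respond to calcium or sodium inside the cell. Of this family 3 of 10 members were called, all lower, beside 14.1% of all genes. Kcnt2, a channel opened by intracellular sodium, was 28.6 to 43.1 CPM in sham mice (median 36.3) and 17.7 to 29.1 CPM in CHI mice (median 24.0). A single CHI mouse was above the lowest sham mouse, and the other 14 were below all of them. The log2 fold change was -0.60 ± 0.10 (adjusted p = 0.0001616). Kcnn3, a small-conductance calcium-activated channel that shapes the after-hyperpolarization, was 14.6 to 33.7 CPM in sham mice (median 24.9) and 10.8 to 25.6 CPM in CHI mice (median 14.4). Its sham values were wide, and 8 of 15 CHI mice lay below them all. The log2 fold change was -0.68 ± 0.17 (adjusted p = 0.01047). Kcnmb1, the BK beta subunit typical of smooth muscle, was a low gene, at 1.47 ± 0.40 CPM in sham and 0.77 ± 0.30 CPM in CHI mice (SD), with a log2 fold change of -0.93 ± 0.23 (adjusted p = 0.008471). Kcnmb1 overlaps Kcnip1 on the opposite strand, and Kcnip1 rose, so reads of the pair can be told apart only if the counting used strand, which is not given in the sources used here. The smooth muscle genes Acta2 (0.02 ± 0.16) and Tagln (0.20 ± 0.13) had log2 fold changes that missed the threshold.

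**Figure D3:**
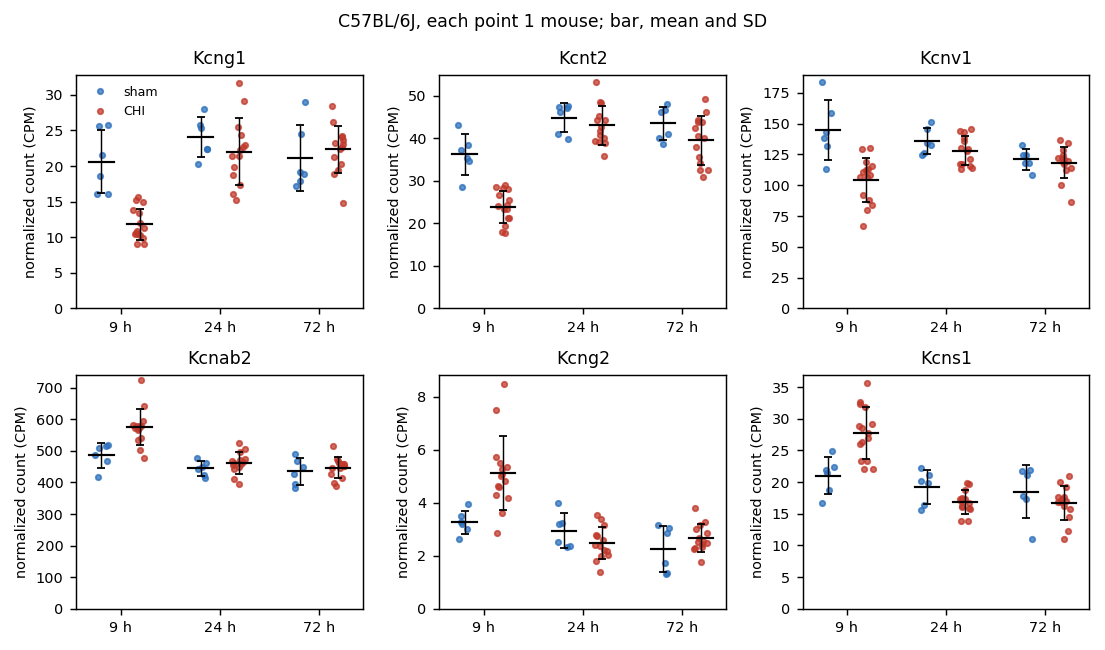
Normalized counts (CPM) in each C57BL/6J mouse at 9, 24 and 72 h for the 3 lower and 3 higher members with the smallest p at 9 h among those reported. Blue points are sham and red points CHI mice, and black bars are the mean and SD. The groups part at 9 h, completely for Kcng1, and their ranges overlap at 24 and 72 h.

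Among the leak channels 3 of 10 were called, beside 14.1% of all genes. Kcnk13, a leak channel well known from microglia, was 5.64 to 8.34 CPM in sham mice (median 7.77) and 2.40 to 8.04 CPM in CHI mice (median 4.79), and 11 of 15 CHI mice lay below all sham mice. It fell by 0.64 ± 0.14 on the log2 scale (adjusted p = 0.00255). Of 6 microglia markers, 3 also fell, led by P2ry12 (-1.05 ± 0.14). The summed level of the 6 was 241.1 to 429 TPM in sham and 156.5 to 330.3 TPM in CHI mice, and its part in the Kcnk13 result was not tested. The mechanosensitive leak channel Kcnk2 fell by 0.22 ± 0.07 (adjusted p = 0.02246), and Kcnk1, the most abundant leak channel, rose by 0.19 ± 0.05 (adjusted p = 0.01267).

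Among the inward rectifiers 2 of 13 were called, close to the 14.1% of all genes called in this comparison. Kcnj8, the pore of the vascular ATP-sensitive channel, rose from 2.77 ± 0.41 to 3.97 ± 0.74 CPM (SD), a log2 fold change of 0.52 ± 0.14 (adjusted p = 0.01224). Its sulfonylurea receptor partner Abcc9 had a log2 fold change of 0.01 ± 0.09 (adjusted p = 0.9688), and of 6 pericyte and smooth muscle markers Pdgfrb alone rose (0.28 ± 0.09). The part of these cells in the Kcnj8 result was not tested. Kcnj3, a subunit of the channels opened by G proteins, fell by 0.20 ± 0.07 (adjusted p = 0.04342) and passed in 6 of 16 other settings of the analysis. Kcnj10 had a log2 fold change of -0.05, whose sign depended on which sham mouse was left out.

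Auxiliary subunits that were called, 4 of 10 beside 14.1% of all genes, all rose. Kcnab2 was 416.5 to 518 CPM in sham mice (median 499.1) and 476.3 to 723.7 CPM in CHI mice (median 571.5). Of the 15 CHI mice 13 exceeded every sham mouse, and the gene rose by 0.24 ± 0.06 on the log2 scale (adjusted p = 0.004414). The call of Kcnab2 was lost in a DESeq2 fit with gene-length offsets. The calcium-binding partners of Kcnd channels rose by 0.22 ± 0.06 for Kcnip3 (adjusted p = 0.01467), 0.21 ± 0.06 for Kcnip1 (adjusted p = 0.02219) and 0.18 ± 0.06 for Kcnip4 (adjusted p = 0.03479). None of the 8 Kcnh genes was called by edgeR, beside 14.1% of all genes. Among them Kcnh7 alone had an unadjusted p under 0.05 (log2 fold change -0.34 ± 0.14, adjusted p = 0.1279).

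Genes that work with the channels were counted as lists, which were chosen with earlier results of these data known. Of 14 tested partners (such as Dpp6, Dpp10, Lgi1 and Cntnap2) none was called, with a median log2 fold change of 0.00. Of the 4 HCN genes, which carry the hyperpolarization-activated cation current, Hcn3 (-0.45 ± 0.13) and Hcn4 (-0.75 ± 0.22) fell. In the same mice 11 of 12 activity-regulated genes were lower (median log2 fold change -1.29) and 5 of 8 glucocorticoid-responsive genes higher (median 0.62). Over all genes 7% were lower and 7.05% higher. Because of how the lists were chosen, their counts are description only. Whether these lists had a part in the channel results was not tested.

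Mice of C57BL/6J at 9 h came from 2 experiments, with 10 CHI and 4 sham mice in eIL-1-76 and 5 CHI and 2 sham mice in eIL-1-80. Within eIL-1-76 alone, 12 members were called and 7.12% of genes. Within eIL-1-80 alone, Kcna6 was the single member called (log2 fold change -0.53) and 1.68% of genes were. The direction held within each for the main genes. Kcng1 was at -0.88 and -0.65, Kcnt2 at -0.58 and -0.68, Kcnv1 at -0.41 and -0.64, Kcnk13 at -0.70 and -0.55, Kcng2 at 0.63 and 0.71, and Kcns1 at 0.44 and 0.29 on the log2 scale.

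Where the most tested members lie and what their promoters hold was read from the annotation. On GRCm39 (GENCODE vM39) Kcnt2 lies on the plus strand at chr1:140173436-140541709, Kcng1 on the minus strand at chr2:168102031-168123656, Kcnv1 on the minus strand at chr15:44820049-44979294, Kcnk13 on the plus strand at chr12:99924948-100028942, Kcnn3 on the plus strand at chr3:89427460-89582439, Kcnab2 on the minus strand at chr4:152474250-152562651 and Kcns1 on the minus strand at chr2:164005539-164013227. All are protein-coding, and values are sums over the exons of each gene. Of the 83 members, 64 overlap another annotated gene, and 14 a protein-coding one.

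RefSeq promoters (GRCm38.p6, 250 bases before and 50 after a start) were found for 60 of 83 members. Windows are shown for Kcnt2, the member called in the most strains, for Kcnk13, called in 2 strains, and for Kcnip4 and Kcnk2, called members that hold a searched motif. Capitals mark AGAACA on either strand, the half-site of the glucocorticoid receptor.
Kcnt2, chr1:140245468-140245767 (+ strand): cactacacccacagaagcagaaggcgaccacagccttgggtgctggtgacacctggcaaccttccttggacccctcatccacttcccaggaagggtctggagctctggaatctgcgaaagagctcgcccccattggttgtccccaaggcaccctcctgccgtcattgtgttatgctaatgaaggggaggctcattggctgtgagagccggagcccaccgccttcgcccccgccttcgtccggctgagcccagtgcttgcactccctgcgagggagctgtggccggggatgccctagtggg
Kcnk13, chr12:99964249-99964548 (+ strand): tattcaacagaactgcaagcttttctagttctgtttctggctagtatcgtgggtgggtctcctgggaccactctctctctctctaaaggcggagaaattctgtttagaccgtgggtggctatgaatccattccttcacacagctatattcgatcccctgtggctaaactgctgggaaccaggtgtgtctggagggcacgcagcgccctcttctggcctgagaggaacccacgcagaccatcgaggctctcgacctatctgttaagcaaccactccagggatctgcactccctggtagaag
Kcnip4, chr5:48599633-48599932 (- strand): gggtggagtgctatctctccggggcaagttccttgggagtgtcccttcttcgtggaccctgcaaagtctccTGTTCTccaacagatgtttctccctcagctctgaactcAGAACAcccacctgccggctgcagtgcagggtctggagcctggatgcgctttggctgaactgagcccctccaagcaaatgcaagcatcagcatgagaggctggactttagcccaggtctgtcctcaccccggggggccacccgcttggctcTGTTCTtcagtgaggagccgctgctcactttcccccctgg
Kcnk2, chr1:189402224-189402523 (- strand): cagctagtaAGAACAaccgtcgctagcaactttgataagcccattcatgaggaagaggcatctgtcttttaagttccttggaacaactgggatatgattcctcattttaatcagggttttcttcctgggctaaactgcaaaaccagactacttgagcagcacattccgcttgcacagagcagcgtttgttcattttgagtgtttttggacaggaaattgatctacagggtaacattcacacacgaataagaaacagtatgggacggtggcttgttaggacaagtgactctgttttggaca

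A member counted if any of its windows held a motif, whereas the share of all promoters was taken per window. A gene with several windows has more chances, so for each motif the 2 shares are not like for like. AGAACA was found in 11 of the 60 members (18.3%) and in 19% of all 32851 promoters. Kcnip4, a higher gene, held it 3 times in the window shown, and Kcnk2, a lower gene, once in 1 of its windows. The palindrome CACGTG, bound by clock factors, was in 5 members (8.33%; Kcnab1, Kcne4, Kcnh4, Kcnj2 and Kcnk5) and in 7.15% of all promoters. The full cyclic AMP response element TGACGTCA was in 0 of 60 members and in 1.79% of all promoters. Both strands were searched, and none of these motifs contains another.

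At 9 h in the IL-1R1 strains, fewer members were called. In IL-1R1 eRestore 9 of 81 passed, 6 higher and 3 lower, beside 7.34% of all genes (4.1% higher, 3.24% lower). Higher members included Kcnip3 (0.35 ± 0.07), Kcnd3, the transient channel it joins (0.34 ± 0.07), Kcnj6 (0.44 ± 0.09), the BK pore Kcnma1 (0.31 ± 0.06) and Kcnh1 (0.31 ± 0.07), and the lower ones were Kcnt2 (-0.45 ± 0.09), Kcnk13 (-0.50 ± 0.12) and the auxiliary subunit Kcne4 (-0.80 ± 0.22), with edgeR adjusted p of 0.005075 to 0.02923. In this strain the call of Kcnk13 was lost without sham replicate 2 or 5, and that of Kcne4 without 2, 5 or 6. Those of Kcnd3 and Kcnma1 were lost with no covariates or with the experiment in place of age. In IL-1R1 nRestore Kcnt2 alone passed, by a narrow margin (adjusted p = 0.04976), beside 0.608% of genes. Its 4 sham mice were at 45.9, 38.7, 40.7 and 36.9 CPM and its 6 CHI mice at 22.9 to 36.2 CPM (median 25.3). The groups did not overlap, and the log2 fold change was -0.65 ± 0.14. The call was lost without sham replicate 1, 3 or 4. In IL-1R1 gKO 0 of 79 members passed by edgeR, beside 0.199% of genes. There 9 had an unadjusted p under 0.05, and DESeq2 called none, or Kcnt2 alone with gene-length offsets.

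**Figure D4:**
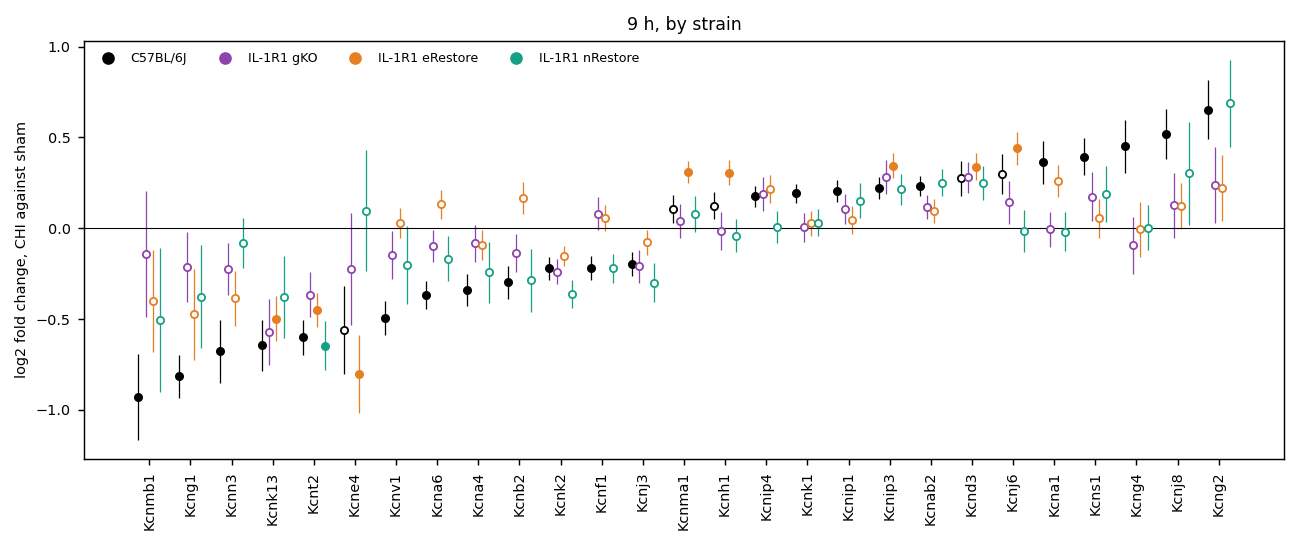
Log2 fold change of CHI against sham at 9 h in each strain for 27 members called in at least 1 strain, ordered by the C57BL/6J value. Bars are standard errors and filled points passed an adjusted p of 0.05. Kcnt2 is filled in 3 strains and below 0 in all 4, while Kcnv1 and Kcna6 lie on both sides of 0.

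Kcnt2 was the single member called in 3 strains. In IL-1R1 gKO it was 25.8 to 41.3 CPM in sham mice (median 29.5) and 18.0 to 34.0 CPM in CHI mice (median 25.0), and the log2 fold change was -0.37 ± 0.12 (adjusted p = 0.2415). The 2 groups overlapped, with 7 of 13 CHI mice below every sham mouse. Kcnip3 was above 0 in all 4 strains (0.22, 0.28, 0.35 and 0.22) and Kcnk13 and Kcnk2 below 0 in all 4. Kcng1 was at -0.82 in C57BL/6J, -0.21 in IL-1R1 gKO, -0.47 in IL-1R1 eRestore and -0.38 in IL-1R1 nRestore. Tested directly, the CHI effect differed between the strains for 0 of 83 members at each time point (joint edgeR test, 8, 6 and 1 members with an unadjusted p under 0.05 at 9, 24 and 72 h), beside 0.00534%, 0.00541% and 0.00543% of genes. The IL-1R1 gKO effect on Kcng1 minus that in C57BL/6J was 0.59 ± 0.29 (adjusted p = 0.7625), and the IL-1R1 eRestore effect on Kcna6 minus that in C57BL/6J was 0.48 ± 0.14 (adjusted p = 0.1777). So a member called in 1 strain and not in another is not shown to differ between them.

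With the 3 IL-1R1 strains fitted together, 12 of 83 members were called at 9 h (5 higher, 7 lower), beside 2258 of 18295 genes. This fit shares no mouse with that of C57BL/6J. Of the 24 members called in C57BL/6J, 22 had the same direction (91.7%) and 7 were also called (29.2%). Of all genes called in C57BL/6J, 95.3% had the same direction and 46% were also called. The members of both lists were Kcnt2 (-0.43 ± 0.07 in the IL-1R1 strains), Kcnk13 (-0.46 ± 0.10), Kcnk2 (-0.25 ± 0.04), Kcnj3 (-0.17 ± 0.05), Kcnab2 (0.12 ± 0.04), Kcnip3 (0.26 ± 0.05) and Kcnip4 (0.16 ± 0.05). Kcng1, Kcnv1 and Kcnn3, which had some of the steepest called falls in C57BL/6J, were not among them.

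With all 4 strains fitted together at 9 h, 31 of 83 members were called (37.3%), 16 higher and 15 lower, beside 23.9% of genes (12% higher, 11.9% lower). Kcnt2 had the smallest p, with a log2 fold change of -0.48 ± 0.06 (adjusted p = 1.166e-09). It was followed by Kcnk2 (-0.24 ± 0.03), Kcnip3 (0.25 ± 0.04), Kcnd3 (0.29 ± 0.05) and Kcnk13 (-0.51 ± 0.09). Genes that had missed the threshold in C57BL/6J and passed here included Kcnd3, Kcnj6 (0.27 ± 0.06), Kcnh7 (-0.28 ± 0.07), Kcne4 (-0.51 ± 0.13), Kcnn1 (0.18 ± 0.05) and Kcnab1 (-0.14 ± 0.04), the last opposite in sign to its relative Kcnab2 (0.15 ± 0.03). Of the genes named for this fit, Kcnab2 and Kcnn1 were not called by DESeq2 with gene-length offsets. The CHI effect at 9 h differed between the sexes for 0 of 83 members (edgeR, 2 with an unadjusted p under 0.05), beside 0% of genes.

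The largest fold changes of that fit were in Kcnj13 (-2.30 ± 0.67, adjusted p = 0.007779) and Kcne2 (-2.27 ± 0.66, adjusted p = 0.007814), an inward rectifier and an auxiliary subunit of the choroid plexus epithelium. In the 20 mice of the series whose 6 choroid plexus markers summed to at least 500 TPM, Kcnj13 was 3.37 to 45.99 CPM, and in the other 180 it was 0 to 2.59 CPM. Kcne2 was 2.21 to 30.5 CPM in the former and 0 to 2.04 CPM in the latter. At 9 h, 6 of 22 sham and 4 of 46 CHI mice were at or above that sum, and 5 of the 6 markers were themselves lower in CHI mice. Without those mice, a setting chosen after seeing the data, neither gene was called (Kcnj13 -0.27 ± 0.49, adjusted p = 0.7806; Kcne2 0.60 ± 0.41, adjusted p = 0.3491), and 24 of 83 members were, beside 17.5% of genes. In C57BL/6J alone 22 of 82 members were called without them, beside 11.4% of genes.

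**Figure D5:**
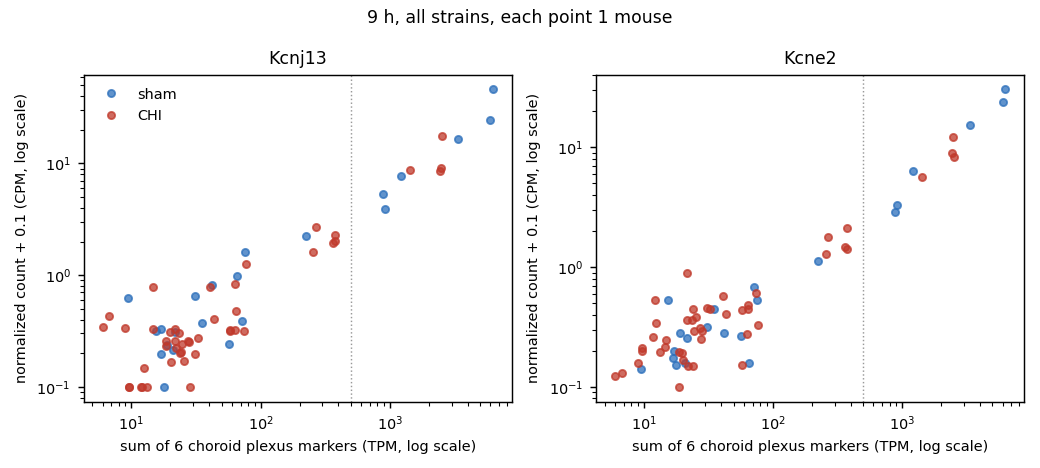
Normalized counts of Kcnj13 and Kcne2 (CPM with 0.1 added, log axis) against the summed TPM of 6 choroid plexus markers (log axis) in each mouse at 9 h, all strains. The dotted line is at 500 TPM, and 6 sham and 4 CHI mice are beyond it. Both genes are high in the mice beyond the line, whichever surgery they had.

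At 24 and 72 h no member passed by edgeR in any strain. The counts were 0 of 80 and 0 of 81 in C57BL/6J, beside 0.404% and 0% of genes, 0 of 80 at both times in IL-1R1 gKO (0.0059% and 0%), 0 of 80 at both in IL-1R1 eRestore (0% and 0.00605%) and 0 of 80 at both in IL-1R1 nRestore (0% and 0.0121%). With all strains together they were 0 of 83 at both, beside 1.48% and 0.706% of genes. An unadjusted p under 0.05 was reached by 14 and 5 members in C57BL/6J and by 13 and 6 with all strains together. DESeq2 called Kcnv1 in IL-1R1 gKO (-0.26), Kcna4 in IL-1R1 eRestore (0.35) and Kcnk1 over all strains (-0.09), each at 24 h, and no member at 72 h. In each IL-1R1 strain at 24 h, 4 or 5 CHI mice came from experiment NiL-1-21, which held no sham mouse of these strains. The oldest CHI mice there were 7.2 to 7.4 months old and the oldest sham mice 5.3 months. In those comparisons, the calls of Kcnv1 and Kcna4 included, CHI cannot be fully told apart from experiment and age.

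For single genes the ranges of CHI and sham mice overlapped at the later times. Kcng1 was 15.2 to 31.7 CPM in C57BL/6J CHI mice at 24 h (median 21.8) against 20.3 to 28.1 CPM in sham mice (median 23.9), and Kcnt2 was 35.8 to 53.2 CPM (median 42.3) against 39.8 to 47.5 CPM (median 46.6). At 72 h Kcnt2 was 30.9 to 49.4 CPM in CHI mice (median 40.2) and 38.7 to 48.1 CPM in sham mice (median 43.6), with overlapping groups. The smallest adjusted p at 24 h in C57BL/6J was 0.3991, for Kcnk1.

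Whether CHI acted differently at 9 h than later was tested within C57BL/6J. The mice of 9 h came from other experiments than the later mice. A change of the CHI effect with time since surgery thus cannot be told from 1 with experiment, age or time of day. The effect at 9 h differed from that at 24 h for 12 of 82 members, beside 5.05% of genes, and from that at 72 h for 11, beside 6.92% of genes. Kcnt2 (-0.54 ± 0.12 for 9 h minus 24 h and -0.48 ± 0.12 for 9 h minus 72 h), Kcng1 (-0.69 ± 0.18 and -0.89 ± 0.18), Kcnk13 (-0.66 ± 0.17 and -0.88 ± 0.17), Kcnn3 (-0.81 ± 0.19 and -0.63 ± 0.19) and Kcnv1 (-0.40 ± 0.13 and -0.45 ± 0.13) passed in both with a lower effect at 9 h. Kcns1 (0.59 ± 0.15 and 0.52 ± 0.15), Kcng4 (0.58 ± 0.18 and 0.61 ± 0.18) and Kcnk1 (0.32 ± 0.07 and 0.26 ± 0.07) passed in both with a higher effect. Kcng2, Kcnj8, Kcnip3 and Kcne2 passed against 24 h only, and Kcna6, Kcne4 and Kcnk2 against 72 h only. The 2 differences were not compared with each other. Kcne2 was high in mice of high choroid plexus content. These were 2 of 6 sham and 2 of 15 CHI mice at 9 h, and 0 of 6 and 2 of 14 at 24 h. Its time difference was not tested without them.

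Levels at 9 h also differed from the later times among sham mice. In C57BL/6J sham mice 39 of 82 members differed between 9 and 24 h (28 higher and 11 lower at 9 h) and 38 between 9 and 72 h, beside 26.9% and 29.5% of genes. In CHI mice 60 and 58 did, beside 58.9% and 61.2% of genes. No experiment held mice of 9 h and of a later time, the ages differed, and surgery took place in the morning, so that time since surgery, time of day, experiment and age cannot be told apart here. For Kcnt2, sham mice at 9 h were lower than at 24 h by 0.29 ± 0.11 on the log2 scale (adjusted p = 0.03022). For Kcnip3 they were higher by 0.28 ± 0.06 (adjusted p = 0.0002892) and for Kcna6 higher by 0.37 ± 0.10 (adjusted p = 0.002919), whereas CHI mice at 9 h were lower in Kcna6 than sham mice of that time. Kcng1 (-0.20 ± 0.15, adjusted p = 0.3293) and Kcnj8 (-0.06 ± 0.17, adjusted p = 0.8389) missed the threshold between sham mice of 9 and 24 h. The sham mice at 9 h are in both kinds of comparison.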

How the data were processed

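RNA sequencing of 1 brain hemisphere per mouse was analysed for 200 mice. Reads of poly(A) libraries were run by the authors through nf-core/rnaseq 3.21.0, with STAR alignment to GRCm39 and Salmon quantification. The deposited tables hold expected counts per gene, estimated by Salmon and not normalized, and TPM, which Salmon scaled for length and library size. The annotation release and strandedness are not given in the sources used here.

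Groups were taken from the sample labels. Counts were rounded to whole numbers. Genes with 10 counts or more in n mice, n being the size of the smallest group compared, entered the quasi-likelihood F test of edgeR 4.0.16 (R 4.3.3) with TMM factors and with sex and age as covariates (IL-1R1 nRestore at 72 h, age only), and with strain added where strains were fitted together. P-values were adjusted over all genes tested, and members with an adjusted p under 0.05 were called. CPM are TMM-normalized. Standard errors come from the F statistics. The self-test on simulated data of 16750 genes used edgeR and DESeq2. By edgeR it recovered 86 of 100 genes changed by 0.5 on the log2 scale and 98 of 100 changed by 1. False calls were 2.1% by edgeR and 11.1% by DESeq2. The changed genes were drawn only from those above a count limit. Recovery was therefore not measured for low members such as Kcnj8 and Kcnmb1, or for changes smaller than 0.5. P-values measure the spread between mice of these experiments. Depth gives small counting errors for all but the lowest members. Alternatives were DESeq2 1.42.0 with and without gene-length offsets, RLE factors, other filters and covariates, single experiments and leaving out each sham mouse.

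Genes with single-mouse values are those the study names or plots and the 3 higher and 3 lower members with the smallest p at 9 h in C57BL/6J. Single-mouse values of Kcna6, Kcnk13, Kcns1, Kcnj13 and Kcne2 were added after their values were seen. Others named were called in a comparison, are the highest of their family, or are said to be chosen otherwise. The members and lists were chosen with earlier results of these data known. Results for some genes are not reported here, though they stay in all counts. Protein sequences were not used here.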

Additional observations from a re-analysis of the deposited data

Results flagged for a closer look

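Among 84 groups of 4 to 10 mice for 12 members, 15 had 1 mouse whose distance from the next, relative to the range of its group, passed the 95% critical value of Dixon's test. Chance alone flags about 1 group in 20 where genes are not picked by their values. Some of the 12 members, Kcnj13 and Kcne2 included, were added after their values were seen. The 15 groups therefore cannot be set against that rate. Of the 15, 10 were in Kcnj13 and Kcne2 at 9 h, in the same groups for both genes. The single high sham mouse was at 24.3 CPM for Kcnj13 and 24 CPM for Kcne2 in C57BL/6J, at 45.99 and 30.5 CPM in IL-1R1 eRestore, at 16.3 and 15.4 CPM in IL-1R1 gKO, and at 3.82 and 3.18 CPM in IL-1R1 nRestore. In the CHI mice of IL-1R1 nRestore it was at 9.08 and 12.1 CPM. These are mice of high choroid plexus marker content, and results without them stand beside those genes.

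The other 5 were single mice of other members. In IL-1R1 eRestore sham mice at 9 h, Kcnn3 was 45.95 CPM in 1 mouse and 22.7 to 26.9 CPM in the other 5, Kcng2 was 5.21 CPM in 1 and 1.76 to 2.80 CPM in the other 5, and Kcnv1 was 107.4 CPM in 1 and 122.9 to 130.1 CPM in the other 5. Kcna6 was 71.1 CPM in 1 CHI mouse of IL-1R1 nRestore at 9 h and 104.9 to 114.5 CPM in the other 5. Kcnk13 was 7.51 CPM in 1 C57BL/6J sham mouse at 72 h and 9.67 to 10.8 CPM in the other 5.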

How the results depend on the processing

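In C57BL/6J at 9 h the number of members called was 18 to 22 when 1 sham mouse was left out, and 19 to 26 with other tests, filters, factors or covariates, against 24. It was 12 with the experiment eIL-1-76 alone and 1 with eIL-1-80 alone, which hold fewer mice. All 22 called members reported kept their direction in the 15 or 16 settings tried for each, and Kcna6 passed in every one. The least stable of them were Kcnj3, past the threshold in 6 of 16, and Kcna1, Kcnb2 and Kcnip4, in 8 of 16 each. With DESeq2 and gene-length offsets, Kcnab2, Kcng2 and Kcnj3 were not called. Without mice of high choroid plexus content, Kcna1, Kcnb2, Kcng2, Kcnip4 and Kcnj3 were not called. Calls were lost without sham replicate 1 (Kcna1, Kcnb2, Kcng4, Kcnip4, Kcnj3, Kcnk1 and Kcnk2), 2 (Kcna1, Kcnf1, Kcng4, Kcnip4 and Kcnk2), 3 (Kcnb2, Kcnf1 and Kcnj3), 4 (Kcna1, Kcnip3 and Kcnj3), 5 (Kcna1, Kcnb2, Kcng4, Kcnip3, Kcnip4 and Kcnk2) or 6 (Kcnb2, Kcnf1, Kcnip1, Kcnip4 and Kcnj3), with adjusted p from 0.05006 (Kcnip3) to 0.125 (Kcnj3). Kcnf1 ran from -0.295 to -0.049 on the log2 scale over all settings. Members that were not called could change sign: Kcnc1 was -0.006 to 0.128, Kcnh3 -0.047 to 0.037 and Kcnj10 -0.091 to 0.029 on the log2 scale with 1 sham mouse left out. Kcnh3 was also at -0.009 without mice of high choroid plexus content.

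In IL-1R1 nRestore at 9 h, 4 members were called by DESeq2 with or without length offsets (Kcnt2, Kcnk2, Kcnh5 and Kcnh7), 8 with no filter beyond 1 count, and 2 (Kcnt2 and Kcnk2) with 10 counts in every mouse, with no covariates or with the experiment in place of age. With 1 sham mouse left out it was 0 to 2. In IL-1R1 gKO, DESeq2 with length offsets called 1 member at 9 h (Kcnt2) and DESeq2 called 1 at 24 h (Kcnv1). In IL-1R1 eRestore at 24 h, 1 (Kcna4) was called by DESeq2 with or without offsets and with no filter beyond 1 count, and in C57BL/6J at 24 h, 2 (Kcnj13 and Kcne2) with that filter. With all strains at 24 h, 1 (Kcnk1) was called by DESeq2, with 10 counts in every mouse and with no covariates. At 9 h the 3 IL-1R1 strains together gave 12 called members, and Kcne2 over all strains turned to 0.603 without mice of high choroid plexus content. Both settings were chosen after seeing the data. The cause of these changes was not tested. The counts for changes of the CHI effect between time points and strains, tried with RLE factors and with no covariates alone, stayed within 1.5 times. No paired analysis was possible because replicate numbers were given in accession order and pair no mice. Depth limits the lowest members, such as Kcnmb1.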
